A study of Mus musculus with 6 samples.

Results

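Ion channel genes with higher expression in neural progenitor cells (NPCs) than in embryonic stem cells (ESCs) were examined gene by gene. A gene belonged to the set if its symbol began with 1 of 13 channel prefixes (Kcn, Scn, Cacn, Clcn, Clic, Trpc, Trpm, Trpv, Hcn, Ryr, Itpr, Ano or Asic) and if it was among the 1999 genes with the largest NPC minus ESC difference, which make up nearly all of the 2004 genes with a symbol here. Of 17144 genes on the arrays, 24 met the rule, and they came from 7 of the 13 prefixes. No member of the Trpc, Trpm, Trpv, Hcn, Ryr or Asic groups was found in these rows. The members were thus chosen by the same difference that is described below, so the NPC minus ESC values are a description. Calls by limma on that difference are given only as counts, and nothing rests on them. Channel genes that were lower in NPCs, or higher by less than the limit of the list, carry no symbol here and were not analyzed.

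The ESCs were wild type V6.5 cells, a mouse line of 129SvJae/C57B6 F1 background that was derived from a blastocyst and kept in serum with LIF. The NPCs were also wild type, were differentiated in vitro from those ESCs, and were grown as dividing cells on laminin in N3 medium with bFGF and EGF. Each cell type had 3 biological replicates with 1 Affymetrix array per replicate, giving 6 arrays. Both cell types therefore share the same genome, and a culture in N3 medium stands for NPCs of that derivation only.

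Ion channels are membrane proteins that let selected ions cross a membrane. Voltage-gated potassium, calcium and sodium channels have pore subunits, which carry the voltage sensor, and auxiliary subunits that set gating and surface delivery. These genes are best known for the firing of neurons, but neural progenitors and glia also use them, for resting potential, calcium signals and volume control. Several gene families with channel names act otherwise, for example as proton-coupled chloride exchangers, lipid scramblases or receptor partners, and their members are described by what they are known to do.

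Expression is given as a log2 value made by robust multi-array average (RMA), so that a difference of 1 is a change of 2-fold. Levels of different genes cannot be set against each other, because every probe set has its own response, and only the differences between arrays were compared between genes. Array medians were 5.75 to 5.76 for the ESCs, with those of the NPCs slightly lower (5.59 to 5.61). NPC replicate 3 stood apart from the other NPC arrays (r = 0.978 to 0.979 across genes, against r = 0.997 between replicates 1 and 2), and the differences that moved most without it are given both ways. Genes are not independent replicates, and precision is limited by having 3 arrays per cell type. The pluripotency gene Pou5f1 had means of 12.44 in ESCs and 3.70 in NPCs, in the direction of the cell type labels. The progenitor genes Nes, Fabp7, Slc1a3 and Vim were higher in NPCs by 2.05 to 9.27. These 4 come from the list of 1999 genes with the largest differences. Their direction was fixed by the naming and is no check of the labels. The other 4 progenitor markers listed (Msi1, Pax6, Sox1 and Sox2) carry no symbol in these rows. Every gene with a difference of at least 0.83 is named, so any of these 4 measured under its symbol lay below that.

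The differences of the 24 ion channel genes ran from 0.87 to 4.65 with a median of 1.73 (3.31-fold), against a median of -0.036 over all 17144 genes. Kcnmb4 and Clic5 shared the upper end (4.65 and 4.64), and without NPC replicate 3 they were at 4.46 and 5.63. The difference was over 8-fold at 4 members (Kcnmb4, Clic5, Kcnd3 and Kcnc1, of which Kcnc1 was at 5.83-fold without replicate 3), over 4-fold at 9 and over 2-fold at 20. By limma (adjusted p under 0.05 and more than 1.5-fold), 15.4% of all genes, 1948 of the 1999 listed genes and all 24 members were called higher in NPCs, counts that follow from how the listed genes were chosen. The lowest NPC array was above the highest ESC array at 23 members, with Cacna1g as the exception. The same held at 26.1% of all genes and at 1970 of the 1999 listed genes, which were chosen by the same difference. The held list ends at a difference of 0.83, and the members nearest to that end were Kcnab2 at 0.87 and Cacna1g at 0.92, while no channel gene beyond it can be named. In ESCs, 7 of the members had a mean below 4.01, the 25th percentile of the ESC arrays, where RMA values compress differences between low signals. These were Kcnd3, Kcnd2, Kcnq5, Cacna1c, Cacnb2, Cacna2d3 and Scn8a. Because whole cultures were measured, a larger share of cells that express a gene and more RNA per cell cannot be told apart.

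**Figure D1:**
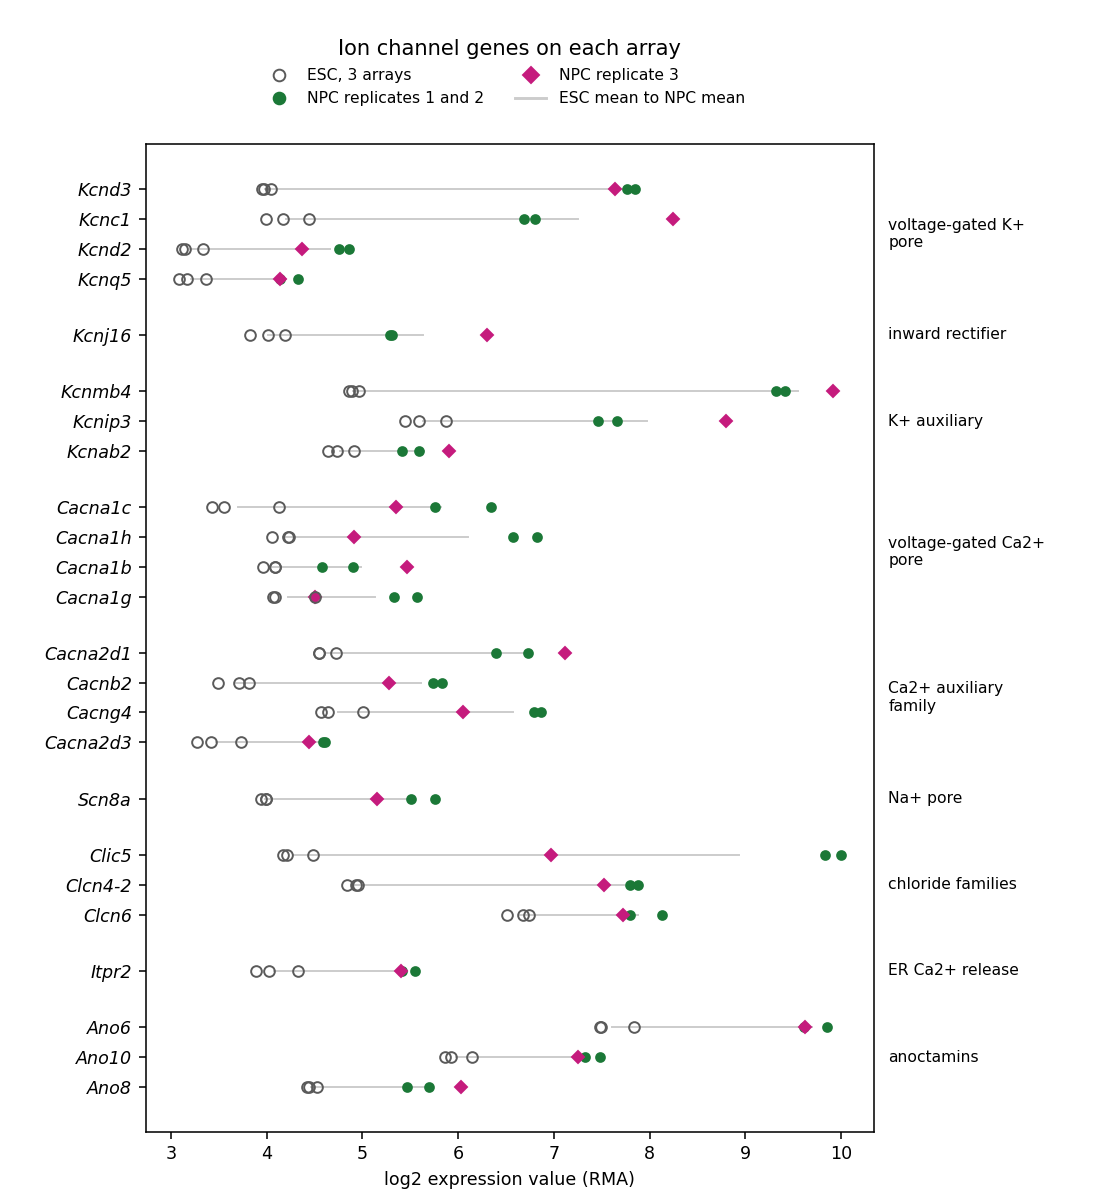
Log2 RMA expression value (x axis) of the 24 ion channel genes (y axis, grouped by class) on each of 6 arrays. Open circles are ESC arrays, filled circles are NPC replicates 1 and 2, diamonds are NPC replicate 3, and grey lines join the means of the cell types. The NPC symbols lie to the right of all ESC symbols at 23 genes, and at Cacna1g the diamond falls on the highest ESC array.

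The voltage-gated potassium pore subunits comprised 4 members with a median difference of 2.25. Kcnd3 (ENSMUSG00000040896) encodes Kv4.3, a pore subunit of the A-type current, which opens below spike threshold and inactivates rapidly. Its ESC arrays read 3.95, 4.04 and 3.97 and its NPC arrays 7.76, 7.85 and 7.63. The difference was 3.76 (standard error 0.087, n = 3 arrays per cell type) or 13.6-fold, and the arrays of each cell type lay close together. Its paralog Kcnd2 (ENSMUSG00000060882), which encodes Kv4.2 of the same current, read 3.11, 3.15 and 3.34 in ESCs and 4.86, 4.75 and 4.37 in NPCs. This was a difference of 1.46 ± 0.14 (standard error), and both A-type genes were lowest in NPC replicate 3.

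Kcnc1 (ENSMUSG00000058975) encodes Kv3.1, the channel that lets neurons repolarize rapidly and fire at high rates. It read 4.17, 3.99 and 4.45 in ESCs against 6.69, 6.80 and 8.25 in NPCs. The last value belongs to replicate 3, and the difference of 3.04 ± 0.40 (standard error, n = 3) became 2.54 without that array, or 5.83-fold in place of 8.25-fold. Kcnq5 (ENSMUSG00000028033), a subunit of the slow M-type current that restrains repeated firing, read 3.08, 3.17 and 3.37 in ESCs and 4.14, 4.32 and 4.13 in NPCs. Its difference of 0.99 ± 0.11 (standard error) was 1.99-fold and changed little among the NPC arrays.

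The sequences just upstream of 3 of these pore genes are shown because Kcnd3, Kcnd2 and Kcnq5 belong to 1 class and span its strongest and weakest differences, a choice made with their values known. RefSeq (GRCm38.p6) gives the 250 bases before a transcript start, and windows that lie within the span of their own gene, such as that of Kcnc1, are not shown. Capitals mark CpG dinucleotides, the sites of DNA methylation in mammals, and each sequence runs 5′ to 3′ on the strand of the gene. The Kcnd3 window lies at chr3:105451640-105451889 (plus strand), the Kcnd2 window at chr6:21215096-21215345 (plus strand) and the Kcnq5 window at chr1:21962651-21962900 (minus strand).
Kcnd3: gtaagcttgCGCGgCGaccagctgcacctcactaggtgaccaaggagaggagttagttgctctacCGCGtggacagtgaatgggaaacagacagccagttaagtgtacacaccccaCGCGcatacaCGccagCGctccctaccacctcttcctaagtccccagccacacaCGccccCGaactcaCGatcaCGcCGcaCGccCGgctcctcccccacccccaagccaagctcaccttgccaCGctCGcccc
Kcnd2: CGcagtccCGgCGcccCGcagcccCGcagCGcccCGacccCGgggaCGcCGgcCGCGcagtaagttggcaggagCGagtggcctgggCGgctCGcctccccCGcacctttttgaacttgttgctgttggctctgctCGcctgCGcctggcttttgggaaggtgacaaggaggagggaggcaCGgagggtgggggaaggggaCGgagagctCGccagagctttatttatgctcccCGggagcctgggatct
Kcnq5: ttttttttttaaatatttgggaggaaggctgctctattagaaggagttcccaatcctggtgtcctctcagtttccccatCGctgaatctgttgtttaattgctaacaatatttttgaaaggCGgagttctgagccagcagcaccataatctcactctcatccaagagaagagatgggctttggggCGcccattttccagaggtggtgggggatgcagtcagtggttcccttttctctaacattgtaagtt

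The upstream sequence holds 18 CpG sites in Kcnd3 and 22 in Kcnd2, with 62.8% and 68.8% G or C, against 3 sites and 44.4% in the Kcnq5 window. Kcnq5 has another RefSeq start, whose window of 300 bases holds 20 CpG sites and is 62.7% G or C. The low count thus belongs to the start shown and not to the gene, and which start these cells use was not measured. The arrays read transcripts and not promoters, so these letters are a description of the loci.

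The inward rectifiers were represented by Kcnj16 (ENSMUSG00000051497), which encodes Kir5.1, a subunit that works in heteromers and is known from astrocytes and kidney epithelium. The ESC arrays read 4.01, 3.83 and 4.19 and the NPC arrays 5.29, 5.31 and 6.30. Replicate 3 was again the highest, and the difference of 1.62 ± 0.27 (standard error, n = 3) was 1.29 without it.

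All 3 auxiliary subunits of potassium channels were highest in NPC replicate 3. Kcnmb4 (ENSMUSG00000054934), the neuronal beta subunit of the large conductance calcium-activated channel, stood at the upper end of the 24 genes together with Clic5. Its arrays read 4.89, 4.86 and 4.96 in ESCs and 9.41, 9.32 and 9.91 in NPCs, a difference of 4.65 ± 0.16 (standard error, n = 3) or 25-fold. Kcnip3 (ENSMUSG00000079056) encodes a calcium-binding protein of many names (KChIP3, DREAM, calsenilin) that partners Kv4 pores and also represses transcription. It read 5.59, 5.88 and 5.44 in ESCs and 7.46, 7.66 and 8.80 in NPCs, and its difference of 2.34 ± 0.34 (standard error) was 1.92 without replicate 3. Kcnip3 and both Kv4 genes, whose products can form 1 complex, were thus all higher in NPCs. In replicate 3, Kcnip3, Kcnd2 and Kcnd3 lay 1.24, -0.44 and -0.17 from the mean of replicates 1 and 2. These gaps rest on 1 array, and whether the 3 genes vary together was not tested. Kcnab2 (ENSMUSG00000028931), the beta subunit with an oxidoreductase fold that binds Kv1 pores, read 4.73, 4.64 and 4.91 in ESCs and 5.59, 5.42 and 5.90 in NPCs. Its difference of 0.87 ± 0.14 (standard error) was among the smallest of the 24 genes.

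Voltage-gated calcium pore subunits gave 4 members with a median difference of 1.44. Cacna1c (ENSMUSG00000051331) encodes Cav1.2, an L-type channel that couples depolarization to gene expression. It read 4.12, 3.43 and 3.55 in ESCs and 6.34, 5.76 and 5.35 in NPCs, a difference of 2.11 ± 0.28 (standard error, n = 3) or 4.33-fold. The spread among its ESC arrays (SD 0.37) was the widest of the 24 genes, and still no ESC array reached an NPC array. Cacna1b (ENSMUSG00000004113) encodes Cav2.2, the N-type channel of presynaptic terminals, and read 3.96, 4.09 and 4.09 in ESCs and 4.90, 4.58 and 5.47 in NPCs, a difference of 0.94 ± 0.21 (standard error).

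Cacna1h and Cacna1g encode T-type channels, which open near the resting potential. Cacna1h (ENSMUSG00000024112) read 4.05, 4.23 and 4.23 in ESCs and 6.83, 6.57 and 4.91 in NPCs. Most of its difference (1.94 ± 0.46, standard error, n = 3) thus came from replicates 1 and 2, which lay 2.53 above the ESC mean, while replicate 3 lay 0.74 above it. Cacna1g (ENSMUSG00000020866) read 4.09, 4.06 and 4.51 in ESCs and 5.33, 5.57 and 4.51 in NPCs. In replicate 3 it was 0.29 above the ESC mean and did not clear the highest ESC array (gap of -0.0029), so that the cell types overlapped. Its call by limma was lost when ESC replicate 1, ESC replicate 2, NPC replicate 1 or NPC replicate 2 was left out. Without NPC replicate 3 its difference was 1.23 in place of 0.92, and that of Cacna1h was 5.78-fold in place of 3.82-fold. Both T-type genes were therefore lowest in NPC replicate 3, where Cacna1g met the ESC values and Cacna1h stayed above all ESC arrays.

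The auxiliary family of calcium channels also had 4 members, with differences from 1.07 to 2.15. Cacna2d1 (ENSMUSG00000040118), the alpha2delta subunit that gabapentin binds, read 4.55, 4.54 and 4.72 in ESCs and 6.40, 6.73 and 7.12 in NPCs, a difference of 2.15 ± 0.18 (standard error, n = 3). Its relative Cacna2d3 (ENSMUSG00000021991) read 3.42, 3.27 and 3.73 in ESCs and 4.59, 4.61 and 4.44 in NPCs, a difference of 1.07 ± 0.13 (standard error). Cacnb2 (ENSMUSG00000057914) encodes a cytosolic beta subunit that brings pores to the surface, and its difference was 1.94 ± 0.16 (standard error). Cacng4 (ENSMUSG00000020723), despite its name, is known as a partner of AMPA-type glutamate receptors, and read 4.57, 4.64 and 5.01 in ESCs and 6.86, 6.79 and 6.05 in NPCs. Cacnb2, Cacng4 and Cacna2d3 were lowest in NPC replicate 3 and Cacna2d1 was highest there, and for all 4 genes the NPC arrays did not overlap the ESC arrays.

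Scn8a (ENSMUSG00000023033) was the only sodium channel gene in the set. It encodes Nav1.6, the channel that accumulates at the axon initial segment and at nodes of Ranvier. The ESC arrays read 3.94, 4.0 and 4.0 and the NPC arrays 5.76, 5.5 and 5.16. The difference was 1.5 ± 0.15 (standard error, n = 3) or 2.82-fold, and the SD among arrays was 0.033 in ESCs and 0.30 in NPCs.

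Among chloride families, Clic5 (ENSMUSG00000023959) showed the largest disagreement between NPC arrays of all 24 genes. Clic5 belongs to the chloride intracellular channel family and is known as a partner of ezrin and the actin cytoskeleton. It read 4.17, 4.22 and 4.48 in ESCs, 9.84 and 9.99 on the first pair of NPC arrays, and 6.97 on that of replicate 3. The difference of 4.64 ± 0.75 (standard error, n = 3), 25-fold, was 49.4-fold without replicate 3, whereas replicate 3 alone lay 2.68 above the ESC mean. Clcn4-2 (ENSMUSG00000000605), now named Clcn4, and Clcn6 (ENSMUSG00000029016) encode chloride and proton exchangers of endosomes. Clcn4-2 read 4.84, 4.93 and 4.95 in ESCs and 7.88, 7.79 and 7.52 in NPCs, a tight difference of 2.83 ± 0.11 (standard error) or 7.10-fold. Clcn6, which was already at 6.64 ± 0.12 (SD, n = 3) in ESCs, reached 7.88 ± 0.22 in NPCs.

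Itpr2 (ENSMUSG00000030287) encodes the type 2 receptor for inositol trisphosphate, which releases calcium from the endoplasmic reticulum and is the main such receptor of astrocytes. Its mean was 4.08 ± 0.23 (SD, n = 3) in ESCs and 5.46 ± 0.084 in NPCs, a difference of 1.38, and its NPC arrays lay close together. Among the anoctamins, Ano6 (ENSMUSG00000064210) encodes a calcium-activated lipid scramblase that exposes phosphatidylserine at the cell surface. It read 7.48, 7.50 and 7.83 in ESCs and 9.61, 9.85 and 9.63 in NPCs, or 2.09 ± 0.13 (standard error) higher. Ano10 (ENSMUSG00000037949), which is linked to a recessive cerebellar ataxia in humans, was higher by 1.38 ± 0.11 (standard error) and Ano8 (ENSMUSG00000034863), a tether of the endoplasmic reticulum to the plasma membrane, by 1.27 ± 0.14 (standard error).

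**Figure D2:**
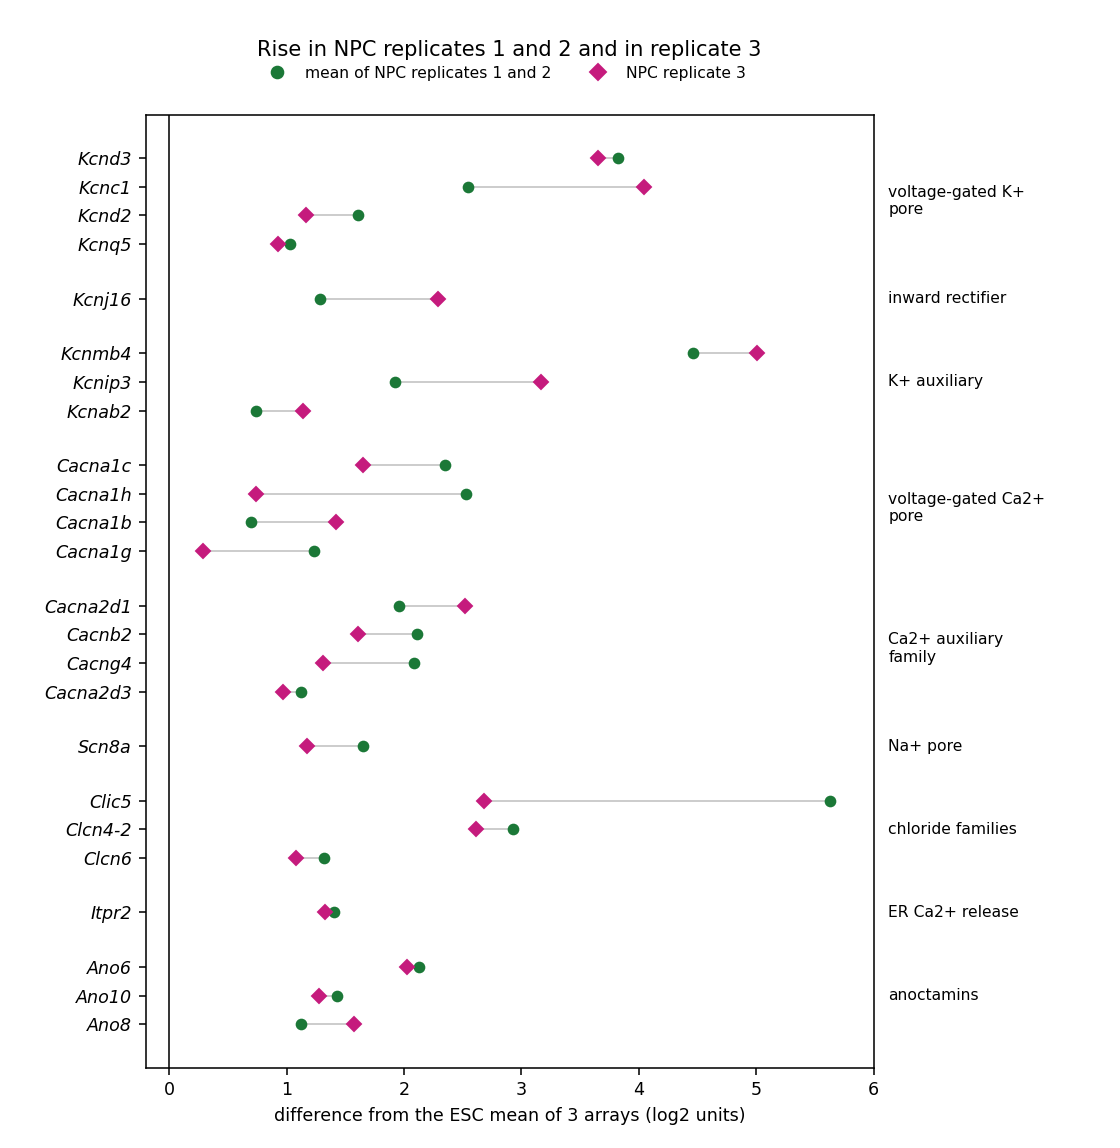
Difference from the mean of 3 ESC arrays (x axis, log2 units) for each ion channel gene (y axis, by class). Circles are the mean of NPC replicates 1 and 2 and diamonds are NPC replicate 3. Symbols are farthest apart at Clic5 (5.63 and 2.68) and nearly coincide at Itpr2 (1.4 and 1.33), and all lie above 0.

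How far the members differed among the NPC arrays was not part of the rule. NPC replicates 1 and 2 were within 0.5 of each other at 23 of the 24 genes, with a largest difference of 0.58 at Cacna1c. Replicate 3 lay more than 1 from the mean of replicates 1 and 2 at 5 members, which is 20.8%, beside 686 of all 17144 genes and 15.2% of the 1999 genes in the list, which were chosen by the same difference as the members. It was more than 1 higher at Kcnc1 (1.5), Kcnip3 (1.24) and Kcnj16 (1.01), as at 2.20% of all genes and 132 of the 1999 listed genes. It was more than 1 lower at Clic5 (-2.95) and Cacna1h (-1.79), as at 1.80% of all genes and 171 of the 1999 listed genes. A single array allows no test of these gaps.

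By rank alone, replicate 3 was the highest NPC array at 8 members and the lowest at 15, against 37.9% and 41.5% of all genes and 37.9% and 52.2% of the listed genes. Of the 8 potassium channel genes, 5 were highest in replicate 3, among them all 3 auxiliary subunits. Of the calcium channel genes, 3 of the 4 pore genes and 3 of the 4 genes of the auxiliary family were lowest there, as were Scn8a, Itpr2 and all 3 chloride family genes. With so few genes per class these counts describe the arrays and no class was tested against another. Without replicate 3, the difference from ESCs was 0.70 at Cacna1b, 0.74 at Kcnab2, 1.12 at Ano8 and 1.96 at Cacna2d1, each lower than with it. It was 2.35 at Cacna1c, 2.11 at Cacnb2, 2.09 at Cacng4 and 1.65 at Scn8a, each higher than with it. Of the members whose values without replicate 3 are not printed, none moved as far as Kcnd2, from 1.46 to 1.61. The median difference of the 24 genes from the ESC mean was 1.79 in replicates 1 and 2 and 1.5 in replicate 3.

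**Figure D3:**
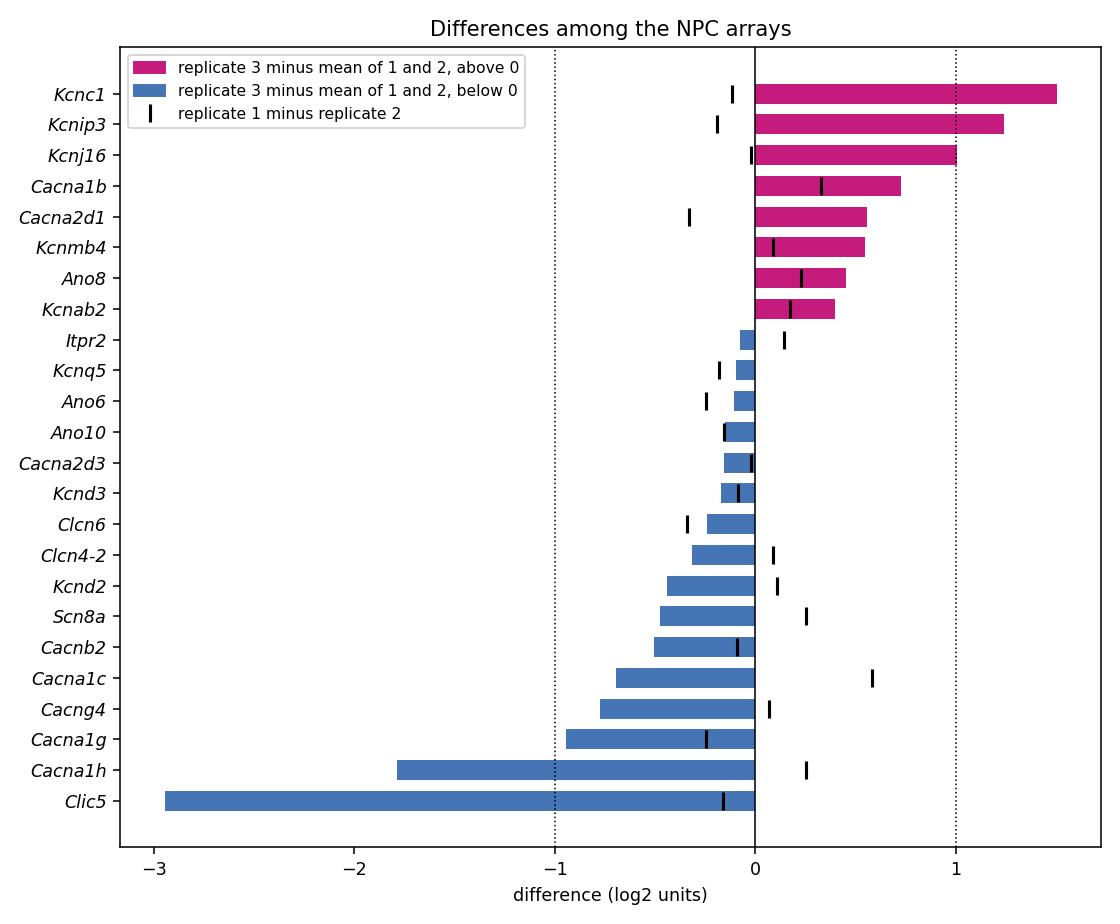
Difference in log2 units (x axis) between NPC replicate 3 and the mean of NPC replicates 1 and 2 (bars) for the 24 ion channel genes (y axis), with dotted lines at -1 and 1. Black ticks give replicate 1 minus replicate 2, which stayed between -0.34 and 0.58. Bars pass the dotted lines at Kcnc1, Kcnip3 and Kcnj16 on the right and at Clic5 and Cacna1h on the left.

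Markers of other cell types also differed in replicate 3. Of 8 neuron markers listed, 2 carry a symbol, and both were lower there: Syt1, a synaptic vesicle calcium sensor, read 6.93, 7.02 and 4.90 in NPCs, and Dcx, a microtubule protein of young neurons, read 4.86, 5.06 and 3.76. Their summed log2 values were 7.03 to 7.37 in ESCs, 11.8 to 12.1 in the NPC arrays of replicates 1 and 2 and only 8.66 in replicate 3. Of 5 astrocyte markers, the 2 with a symbol, S100b and Aldoc, were both highest in replicate 3, with sums of 12 to 12.1 in ESCs, 16.6 to 16.8 in the first pair of NPC arrays and 18.0 in replicate 3. The oligodendrocyte lineage list had Olig1 and Olig2 of 7 genes, which went opposite ways in replicate 3. Olig1 read 13.21, 13.22 and 12.99 in NPCs and Olig2 11.07, 10.96 and 11.67, with sums of 16.6 to 16.7 in ESCs, 24.2 to 24.3 in the first pair of NPC arrays and 24.7 in replicate 3. Of 8 fibroblast markers only Twist1 carries a symbol, at 4.14 to 4.45 in ESCs and 6.66, 6.35 and 7.16 in NPCs. The markers named here come from the list of 1999 genes with the largest differences, so their rise from ESCs was fixed by the naming. The remaining markers of these lists carry no symbol, and any measured under its symbol had a difference below 0.83. RMA values have no true zero, and the part of such cells in the channel values was not tested.

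Promoter windows of RefSeq (GRCm38.p6, 300 bases each) were found for 20 of the 24 members, 33 windows in all because some genes have several starts. No window was at hand for Ano8, Cacna1g, Cacna1h and Cacng4. The members' windows had a median of 62.7% G or C, against 52.7% over all 32841 windows, and 19 of the 33 windows (in 18 members) were above 60%, as were 28.7% of all windows. The GC box (GGGCGG on either strand) was present in 19 of the 33 windows (57.6%) and in 35.7% of all windows. The CCAAT box (CCAAT) was present in 24.2% of members' windows and 37.4% of all, and the TATA box (TATAAA) in 3.03% and 13.6%, the Kcnj16 start being the only member window with it. Letters bound by POU, SOX and NF-I factors were counted in the same way. The octamer ATGCAAAT of POU factors was in 1 member window (Kcnab2, 3.03%) and 1.74% of all. The SOX letters ACAATG were in 2 windows (Clcn4-2 and Kcnq5, 6.06%) and 12.6% of all. For the NF-I letters TTGGCA these were 4 windows (12.1%) and 14.1% of all. The study reports other strings for SOX2 and for the POU factor BRN2, and those were not counted. GC boxes lie within GC-rich windows by their letters, the windows of a gene are not independent, and a match is not a binding site.

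Partners of these channels in other families were read from a list of 68 genes (acid-sensing channels under their older names, purinergic receptors, store-operated calcium entry, pannexins, volume-regulated anion channels, cation-chloride cotransporters, ion pumps, sodium channel partners and scaffolds). Only 14 of the 68 carry a symbol, and all 14 of these come from the list of 1999 genes with the largest differences, so their direction was fixed by the naming and their values are a description. Any other gene of the 68 that was measured under its symbol had a difference below 0.83. Accn2, since renamed Asic1, is a channel gene that the prefixes missed through its older name, and it read 5.96, 5.98 and 6.04 in ESCs and 7.35, 7.30 and 7.07 in NPCs. In store-operated entry, in which a calcium sensor of the endoplasmic reticulum opens a plasma membrane pore, the sensor Stim2 read 4.82, 4.76 and 5.02 in ESCs and 7.99, 7.82 and 8.02 in NPCs. This difference of 3.08 was 8.44-fold, and that of the pore gene Orai2 was 1.04.

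The sodium channel partners Fgf13, Fgf12 and Ank2 were higher by 1.51, 0.92 and 1.93. Their relatives Fgf11, Fgf14 and Ank3 were also listed but carry no symbol here, so the partners named are those with the larger differences. Fgf12 and Fgf13 are intracellular FGF family proteins that bind sodium channel tails, and Ank2 is an ankyrin that ties membrane proteins to spectrin. The ATP-gated channel gene P2rx3 read 6.46, 6.18 and 7.42 in NPCs, highest in replicate 3, and its difference of 1.72 was 1.35 without that array. Slc12a2, which loads cells with chloride, was higher by 1.62 (1.45 without replicate 3), the calcium pump gene Atp2b1 by 1.56, the polycystin genes Pkd1 and Pkd2 by 1.55 and 1.01, Panx1 by 1.26, the volume-regulated anion channel subunit Lrrc8a by 1.11 and the scaffold Dlg4 by 0.96. At 13 of the 14 genes replicate 3 was within 1 of the mean of replicates 1 and 2, with P2rx3 (1.10) as the exception.

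**Figure D4:**
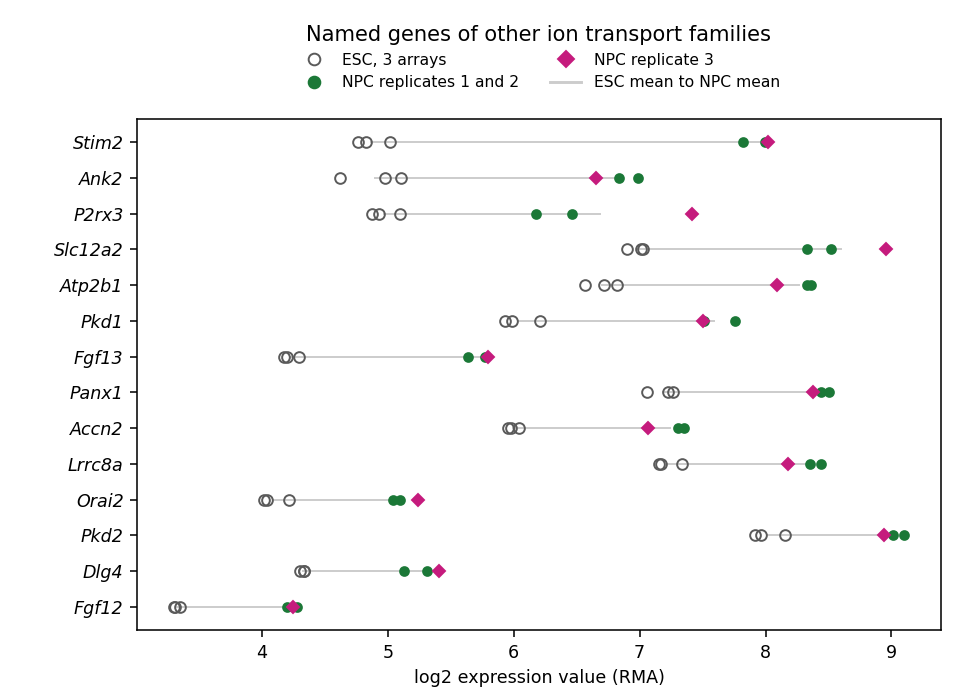
Log2 RMA expression value (x axis) of the 14 named genes of other ion transport families (y axis, ordered by difference) on each array. Open circles are ESC arrays, filled circles NPC replicates 1 and 2, diamonds NPC replicate 3, and grey lines join the means. No NPC symbol reaches an ESC symbol, the widest separation is at Stim2, and the diamond stands off from the filled circles most at P2rx3.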

How the data were processed

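RNA from 3 ESC and 3 NPC cultures was measured on Affymetrix mouse arrays. The authors deposited log2 values made by RMA with an updated probe annotation (BrainCDF), with 1 value per Ensembl gene. For that annotation, version and build were not given in the sources used here. Of 17208 rows, 64 control probe sets were left out, and no floor or filter was applied to the other 17144. Symbols came from matching all 6 values of a row to a printed row of the study's comparison sheet within 0.0001, which named all 1999 rows at hand, and to its 2 short sheets of transcription factors, for 2004 genes in all. Other 15140 genes stayed unnamed. The members, classes and lists were chosen with earlier results of these data known. All members are named, and other named genes come from lists of whole families and markers.

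Means, SDs and differences were computed with Python 3.11.15 and pandas 2.3.3. The functions lmFit and eBayes of limma 3.58.1 under R 4.3.3 (6 arrays, no covariates, Benjamini-Hochberg over all genes) gave standard errors and calls at an adjusted p under 0.05 and over 1.5-fold, the thresholds of the methods, in place of the moderated Welch test used there. On simulated arrays for this comparison (17144 genes, 100 changed 2-fold and 100 changed 4-fold), limma called 83 and 95 of these and 4 unchanged genes. The simulation gave each gene 1 SD for both cell types and changed few genes, whereas 2638 and 3213 were called in the data. Its counts are therefore not error rates of the comparison. Arrays carry no read depth. Alternatives were limma with a mean-variance trend, a rebuilt moderated Welch test, a replicate block, quantile normalization, median centring, filters, other fold thresholds and each array left out.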

Additional observations from a re-analysis of the deposited data

How the results depend on the processing

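The number of members called higher in NPCs was 24, and between 23 and 24 with each array left out. Cacna1g was the member that lost its call, without ESC replicate 1, ESC replicate 2, NPC replicate 1 or NPC replicate 2, and with the replicate block. A fold threshold of 2 left 20 members and 1615 genes higher and 1977 lower in NPCs. The filter at the median of the mean value kept 8 called members, since it removes low genes before the test. Members whose replicate 3 lay off the other NPC arrays numbered 12 with a limit of 0.5 in place of 1. At that limit no count over all genes or over the listed genes was taken, so the 12 have no background beside them.

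Quantile normalization and median centring changed no member's call. Median centring turned the split of all calls from 2638 higher and 3213 lower (45.1% higher) to 3302 and 2642 (55.6% higher), and the median of all genes from -0.036 to 0.12, while the median of the members went from 1.73 to 1.88. No member's difference changed sign in the 192 values recomputed under another scaling or without 1 array. Of these values, 4 moved by at least 1 residual SD of the fit, all under another scaling. Leaving out 1 of 3 arrays cannot move a difference that far, since the array's own deviation is part of that SD. The SD limit thus says nothing about single arrays, and Clic5 went from 4.64 to 5.63 without NPC replicate 3. The replicate numbers are shared by the cell types but did not pair the arrays, since deviations of same-numbered arrays correlated at 0.026, 0.011 and -0.0064. With the replicate block, 2649 genes were higher, 3218 lower and 23 members called.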
